A study of Oryza sativa with 27 samples.

Results

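The KNOX genes OSH1, OSH3, OSH6, OSH45 and OSH71 of rice (Oryza sativa) were followed in the ovary before and after pollination. They were taken by name, as 5 genes of the 17905 that the array's probe sets could be tied to, and all of their probe sets were used, which were 6 of 57258 probe sets for rice genes. OSH1 had the probe sets Os.151.2.S1_at and Os.151.1.S1_x_at, named below by their endings at and x_at. The ending x_at marks probes that may also bind other transcripts. OSH3 was measured by Os.1855.1.S1_at, OSH6 by Os.4163.1.S1_at, OSH45 by Os.5992.1.S1_at and OSH71 by Os.4162.1.S1_at. In the bottom part of the ovary, OSH1, OSH3 and OSH6 fell after pollination. OSH1 and OSH71 were lower in the top part than in the bottom part at every stage. OSH45 fell in the top part, as did OSH1 and OSH71 from lower levels there.

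Ovaries of field-grown plants were cut into a smaller bottom part, which per the labels contains the embryo, and a larger top part. The top part is described as mainly endosperm after pollination. The unpollinated parts served as reference, and the other parts were taken 1, 2, 3 and 4 days after pollination (DAP). RNA of these samples was read on 27 Affymetrix rice arrays, 3 for each of the 5 bottom groups, 3 for the top part unpollinated and at 4 DAP, and 2 for the top part at 1, 2 and 3 DAP. Per the labels these are biological replicates, but no plant or panicle is named for them, so p-values measure the spread between these samples. No cultivar or genotype is given in the sources used here, and no group carries a treatment other than pollination. A part of an ovary is a mixture of carpel, ovule, endosperm and embryo tissue. A lower value can come from fewer cells of a type or from less RNA per cell, and these cannot be told apart here.

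KNOX proteins are homeodomain transcription factors of the TALE class, named for maize KNOTTED1. Class I members, to which OSH1, OSH3, OSH6 and OSH71 belong, are active in shoot meristems, where they keep cells undetermined and are switched off where a leaf starts. They are known to raise cytokinin synthesis and to lower gibberellin synthesis, and OSH1 of rice is also known to act on genes that break down brassinosteroids. In the rice embryo, OSH1 is known as an early marker of the region where the shoot forms. Class II members, to which OSH45 belongs, are expressed more widely, differentiated tissue included. In the RefSeq rice annotation OSH1 and OSH3 lie on chromosome 3 with 1 gene between them, OSH6 on chromosome 1, OSH71 on chromosome 5 and OSH45 on chromosome 8.

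Values are the deposited intensities, in units of each array's own 75th percentile, so that 1 equals that percentile. The median of all values was 0.264. Changes are differences of log2(value + 0.13), where 0.13 is the 20th percentile of all values. Folds on this scale understate the change of low values. Below, called means an adjusted p under 0.05 in limma over the 29332 probe sets tested, which included all 6 of the KNOX genes. Arrays of a group correlated with r from 0.863 to 0.978. The third replicates of the bottom part at 2, 3 and 4 DAP were named as standing apart in earlier work on these data. Their root mean square log2 deviation from their group means was 0.367, 0.516 and 0.484, against 0.181 to 0.379 on the other 24 arrays, and results that rest on them are given with and without them. Of the embryo markers, ROC1, an epidermal homeobox gene, averaged 4.73 ± 1.31 (SD, n = 3) in the bottom part at 4 DAP and 5.70 ± 0.62 (SD, n = 3) in the top part. OsSCR1 and OsWOX9 had means below the median of all values in the bottom part at every stage. OsVP1, a regulator of embryo maturation, averaged 0.192 before pollination, 0.393 at 3 DAP and 0.596 at 4 DAP in the bottom part, against 0.143, 0.230 and 0.488 in the top part. The endosperm marker Wx, for a starch synthase, averaged 14.6 ± 3.15 (SD, n = 3) in the bottom and 43.3 ± 16.5 (SD, n = 3) in the top part at 4 DAP. In the top part it averaged 0.091 at 1 DAP and 0.102 at 2 DAP. On both days 7 of 9 endosperm markers had means below the median of all values there, so the top part is called by its position too. With endosperm and carpel markers read in it as well, the bottom part is called by its position below.

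**Figure D1:**
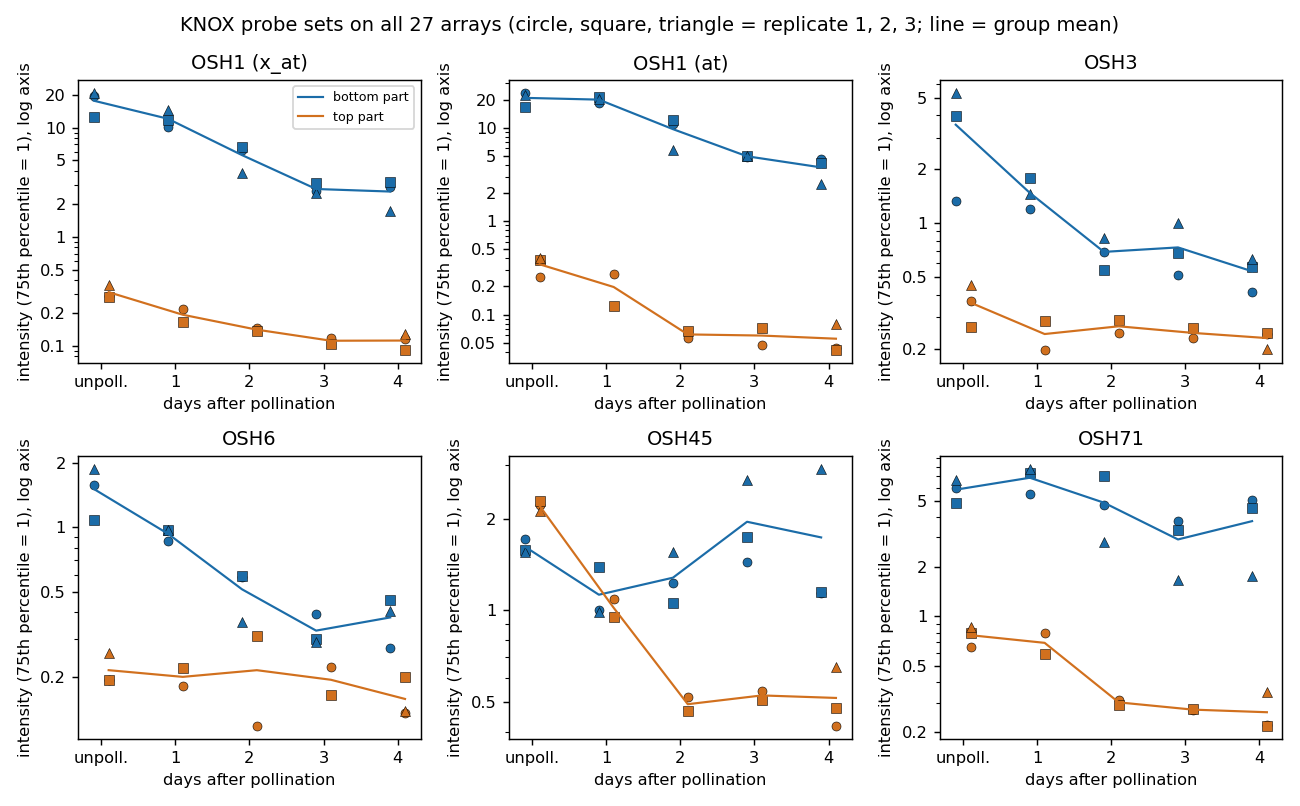
Intensity of each KNOX probe set on every array (log axis, in units of the array's 75th percentile) by days after pollination. Blue is the bottom part and orange the top part, symbols mark replicates 1, 2 and 3, and lines join the group means. The OSH1 and OSH71 points of the bottom part all lie above those of the top part, while the OSH45 points of both parts lie close together at 1 DAP and apart from 2 DAP on.

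OSH1 was read at a high level in the bottom part before pollination and fell there from 2 DAP on. The at probe set gave 23.6, 16.7 and 22.3 on the unpollinated bottom arrays and 18.5, 21.3 and 20.2 at 1 DAP. At 2 DAP it gave 10.98, 12.2 and 5.74. It gave 4.87, 4.96 and 4.997 at 3 DAP and 4.62, 4.16 and 2.497 at 4 DAP. The arrays of the unpollinated and 1 DAP groups overlapped, and all later arrays lay below both. The mean at 4 DAP was 18.02% of the unpollinated mean. The log2 change from the unpollinated stage was -0.05 at 1 DAP (limma, adjusted p = 0.935), with a 95% confidence interval from -0.57 to 0.48. It was -1.16 ± 0.25 (SE, adjusted p = 0.00304; 0.0707 when only the 2 groups were fitted) at 2 DAP, -2.03 ± 0.25 (adjusted p = 6.86e-06) at 3 DAP and -2.46 ± 0.25 (adjusted p = 4.27e-07) at 4 DAP.

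The x_at probe set of OSH1 gave 19.6, 12.5 and 20.8 in the bottom part before pollination and 2.85, 3.19 and 1.73 at 4 DAP, when the mean was 14.7% of the unpollinated one. Its log2 change was -0.52 ± 0.23 (SE) at 1 DAP, which was not called (limma, adjusted p = 0.15) except without replicate 2 of the unpollinated part (-0.75, 0.0432), then -1.64 at 2 DAP, -2.60 at 3 DAP and -2.71 ± 0.23 (SE, adjusted p = 2.97e-08) at 4 DAP. Both probe sets fell between 1 and 2 DAP, by 1.12 (limma, adjusted p = 0.0164) for x_at and 1.11 (adjusted p = 0.0329) for at on the log2 scale. Among all probe sets tested, 0.968% were called between those days. No other KNOX probe set was. By limma none was called at the other 5 steps between neighbouring days, where 0.0682% (bottom, 2 to 3 DAP), 0.0102% (bottom, 3 to 4 DAP), 0.917%, 2.20% and 0.181% (top, 1 to 2, 2 to 3 and 3 to 4 DAP) of all probe sets were. At those 5 steps 3 KNOX probe sets had an unadjusted p under 0.05 in the bottom part from 2 to 3 DAP and 3 in the top part from 1 to 2 DAP, all lower at the later day. The step of OSH1 depended on single arrays. For x_at it was not called without replicates 2 or 3 at 1 DAP (adjusted p = 0.0679 and 0.126) or replicate 3 at 2 DAP (0.139). For the at probe set it was not called without any of replicates 1, 2 or 3 at 1 DAP (0.0639, 0.155 and 0.137) or replicates 1 or 3 at 2 DAP (0.0509 and 0.259), nor without the 3 arrays that stood apart (0.0674). Without the 3 arrays that stood apart, OSH1 also fell between 2 and 3 DAP, by 1.15 (adjusted p = 0.00746) for x_at and with a log2 change of -1.215 (adjusted p = 0.0061) for at. Fitted on the 2 groups alone, neither step between 1 and 2 DAP was called (adjusted p = 0.179 for x_at and 0.251 for at).

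OSH1 was low throughout in the top part. The at probe set gave 0.252, 0.383 and 0.399 before pollination, 0.271 and 0.123 at 1 DAP, and between 0.042 and 0.080 on all 7 arrays from 2 to 4 DAP. Those 7 values lie below the pseudocount of 0.13. The at probe set was called lower than before pollination at 2 DAP (log2 change -1.30, limma, adjusted p = 0.00294), 3 DAP (-1.31, adjusted p = 0.00163) and 4 DAP (-1.35 ± 0.25 SE, adjusted p = 0.000286). At such low values the share of the unpollinated level that was left cannot be read, and none is given. The x_at probe set in the top part, whose values at 3 and 4 DAP lay below the pseudocount too, was called lower at 4 DAP (-0.86, adjusted p = 0.00573). It was called at 3 DAP too (-0.86, adjusted p = 0.0166), and that call was lost without replicate 3 of the unpollinated top part (0.053), without replicate 1 or 2 at 3 DAP (0.0941 and 0.0845), with the pseudocount at the median (0.0732) and with an 18S ribosomal signal as covariate (0.0606).

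OSH71 was lower in the top part than in the bottom part throughout, and fell in the top part by 3 DAP. It gave 5.95, 4.82 and 6.70 on the unpollinated bottom arrays, 5.52, 7.32 and 7.79 at 1 DAP, and 4.69, 7.08 and 2.81 at 2 DAP. At 3 DAP it gave 3.75, 3.34 and 1.67, and at 4 DAP 5.02, 4.52 and 1.75. The lowest value of each of these 3 later groups came from the array that stood apart. The bottom part was called lower than before pollination at 3 DAP alone, with a log2 change of -1.03 ± 0.34 (SE, limma, adjusted p = 0.0444). That call was lost without replicate 1, 2 or 3 of the unpollinated bottom part (adjusted p = 0.105, 0.0587 and 0.126) and without replicate 2 (0.0519) or 3 (0.219) at 3 DAP, where the change without replicate 3 was -0.69. It was lost too with no filter (0.0659) and when only the 2 groups were fitted (0.137). Without all 3 arrays that stood apart it was -0.69 with an adjusted p of 0.0285. At 4 DAP the change was -0.73, with an interval from -1.44 to -0.02 and an adjusted p of 0.148, and without those arrays it was -0.27 (adjusted p = 0.39).

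On the top arrays OSH71 gave 0.652, 0.798 and 0.864 before pollination and 0.792 and 0.594 at 1 DAP. At 2 DAP it gave 0.313 and 0.294 and at 3 DAP 0.272 and 0.276. The arrays of 4 DAP gave 0.221, 0.219 and 0.352. No array from 2 DAP on reached the unpollinated range. The fall was called at 3 DAP (log2 change -1.15, limma, adjusted p = 0.0311) and 4 DAP (-1.20 ± 0.34 SE, adjusted p = 0.00932), and the change of -1.05 at 2 DAP was not (adjusted p = 0.0613). At 2 DAP it was called with the replicate number as a block (-1.15, 0.0369), with the lowest pseudocount (0.0458) and when only the 2 groups were fitted (0.0237). The call at 3 DAP was lost without replicate 2 or 3 of the unpollinated top part (adjusted p = 0.0712 and 0.0793) and without replicate 1 or 2 at 3 DAP (0.168 and 0.107), with the pseudocount at the median (0.0641) and with the 18S covariate (0.108).

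OSH3 fell in the bottom part from 1 DAP on, from an unpollinated group that was spread widely. It gave 1.34, 3.95 and 5.34 before pollination, 1.199, 1.78 and 1.45 at 1 DAP, and 0.696, 0.551 and 0.832 at 2 DAP. At 3 DAP it gave 0.512, 0.685 and 1.00, and at 4 DAP 0.417, 0.574 and 0.631. All 9 arrays from 2 to 4 DAP lay below the lowest unpollinated array. The log2 change was -1.01 ± 0.32 (SE, limma, adjusted p = 0.0401) at 1 DAP, -1.98 at 2 DAP, -1.93 at 3 DAP and -2.27 ± 0.32 (adjusted p = 2.59e-05) at 4 DAP. The call at 1 DAP was lost without replicate 2 or 3 of the unpollinated part (adjusted p = 0.16 and 0.264) and without replicate 1 or 3 at 1 DAP (0.147 and 0.101), with no filter on low values (0.0564) and when only the 2 groups were fitted (0.196), which also ended the call at 3 DAP (0.0728). Without replicate 1 of the unpollinated part, the lowest of its group, the change at 1 DAP was -1.57 (adjusted p = 0.000104). On the top arrays OSH3 lay between 0.197 and 0.453 on all 12 arrays and was called at no day. Its largest top change from the unpollinated stage was -0.44 ± 0.32 (SE) at 4 DAP, with an interval from -1.10 to 0.23.

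OSH6 fell in the bottom part from 2 DAP on. It gave 1.58, 1.08 and 1.88 before pollination, 0.863, 0.969 and 0.969 at 1 DAP, and 0.587, 0.589 and 0.361 at 2 DAP. At 3 DAP it gave 0.394, 0.299 and 0.291, and at 4 DAP 0.272, 0.457 and 0.406. Every array after pollination lay below every unpollinated array. The log2 change was -0.60 ± 0.21 (SE) at 1 DAP, which was not called (limma, adjusted p = 0.0696), but was with the pseudocount at the median (0.0362), with quantile normalization (0.038) and without replicate 2 of the unpollinated part (0.0215). It was -1.35 at 2 DAP, -1.82 at 3 DAP and -1.68 ± 0.21 (adjusted p = 7.34e-06) at 4 DAP. The 12 top values of OSH6 lay between 0.118 and 0.311, around or below the median of all values, and OSH6 was called there at no day. The top change at 4 DAP was -0.26, with an interval from -0.71 to 0.18.

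OSH45, the class II gene, fell in the top part and was not called in the bottom part. Its top arrays gave 2.21, 2.29 and 2.11 before pollination and 1.09 and 0.952 at 1 DAP. At 2 DAP it gave 0.517 and 0.466, at 3 DAP 0.543 and 0.508, and the 3 arrays of 4 DAP gave 0.418, 0.479 and 0.650. The top arrays thus fell into 3 levels that did not overlap, unpollinated, 1 DAP and 2 to 4 DAP, and at 4 DAP the mean was 23.4% of the unpollinated mean. The log2 change was -1.02 ± 0.29 (SE, limma, adjusted p = 0.0186) at 1 DAP, -1.91 (adjusted p = 0.000134) at 2 DAP, -1.83 at 3 DAP and -1.87 ± 0.26 (adjusted p = 1.23e-05) at 4 DAP. The call at 1 DAP was lost without replicate 1 (adjusted p = 0.0889) or 2 (0.133) of that group.

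In the bottom part OSH45 gave 1.72, 1.58 and 1.56 before pollination, 1.00, 1.39 and 0.985 at 1 DAP and 1.23, 1.06 and 1.55 at 2 DAP. It gave 1.44, 1.74 and 2.67 at 3 DAP and 1.14, 1.15 and 2.91 at 4 DAP. The highest value of each of the 3 later groups came from the array that stood apart, the reverse of OSH71. At 4 DAP the log2 change was -0.04 ± 0.26 (SE, limma, adjusted p = 0.953), with an interval from -0.58 to 0.51. Without the 3 arrays that stood apart it was -0.455 and was called (adjusted p = 0.048).

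**Figure D2:**
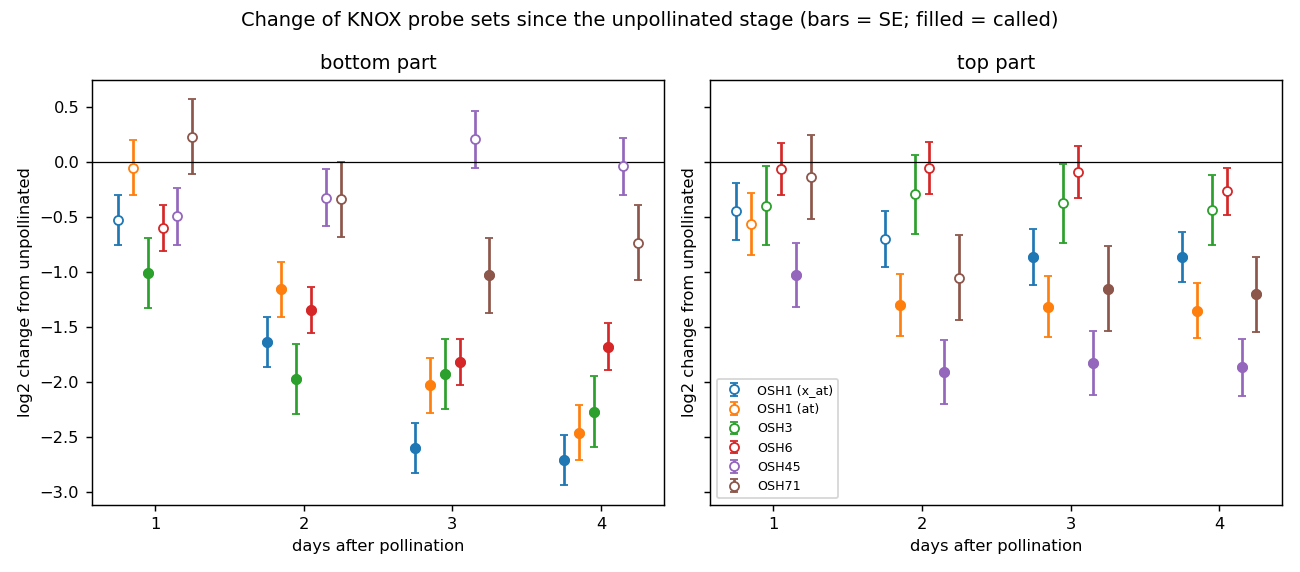
Change of each KNOX probe set from the unpollinated stage on the log2(value + 0.13) scale, in the bottom (left) and top part (right) at 1 to 4 days after pollination. Bars are standard errors and filled points were called. In the bottom part both OSH1 probe sets, OSH3 and OSH6 lie between -1.68 and -2.71 at 4 DAP with OSH45 at -0.04, and in the top part OSH45 is the lowest at each day.

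Counted over the 6 probe sets, 1 was called lower than unpollinated in the bottom part at 1 DAP (OSH3), against 5.60% of all probe sets tested. At 2 DAP 4 were called lower against 6.44%, at 3 DAP 5 against 7.66%, and at 4 DAP 4 against 8.34%. The same 4, both of OSH1, OSH3 and OSH6, were called lower at 2, 3 and 4 DAP alike, as were 4.37% of all. In the top part 1 was called lower at 1 DAP (OSH45, background 7.45%), 2 at 2 DAP (OSH1 at and OSH45, 8.26%), 4 at 3 DAP (11.1%) and 4 at 4 DAP (16.5%), those 4 being both of OSH1, OSH45 and OSH71. By limma no KNOX probe set was called higher than unpollinated at any day in either part. None was higher at an unadjusted p under 0.05 either. Of all probe sets, at least 7.80% were called higher at each day in the bottom part and at least 9.83% in the top part. With 6 probe sets a count of none says little against these shares. The comparisons of a part share its unpollinated arrays, so the days are not independent of each other.

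While OSH1, OSH3 and OSH6 fell in the bottom part, the summed level of 4 nucellus and ovule markers went from 32.7 to 47.3 on the unpollinated bottom arrays to 89.4 to 120.8 at 4 DAP. The summed level of 5 carpel wall markers went from 42.2 to 52.1 up to 90.2 to 154.7, and that of 9 endosperm markers from 4.61 to 5.38 up to 18.1 to 24.7. Within these sums the members differed. OsSWEET11, a sugar transporter, went from a mean of 20.1 to 78.9 and the ovule gene MADS13 from 15.0 to 12.8, and MADS21 and MADS29 were higher at 4 DAP. Of the carpel wall list, the chlorophyll-binding protein genes CAB2R and LHCP went from 13.9 to 66.4 and from 4.53 to 22.3, MADS58 from 23.9 to 33.1 and MADS3 from 2.78 to 3.16, while DL, which specifies the carpel, went from 2.34 to 1.53. The sum of 4 embryo markers, mostly ROC1, ran from 2.59 to 4.20 before pollination and from 4.51 to 6.63 at 4 DAP. At 2 DAP the endosperm sum in the bottom part was 5.84 to 6.89, mostly GLB (mean 4.52). Of the 9 endosperm markers, 7 had means below the median of all values there. Most of the rise of this sum by 4 DAP was Wx, from 0.218 before pollination to 14.6, while GLB went from 2.78 to 3.02. On the top arrays the nucellus and ovule sum went from 27.8 to 39.2 before pollination up to 112.6 to 129.5 at 4 DAP, the carpel wall sum from 76.5 to 104.8 up to 174.8 to 180.7 and the endosperm sum from 5.27 to 7.23 up to 31.3 to 73.9. There too OsSWEET11 (8.08 to 88.5), CAB2R (31.2 to 88.7) and LHCP (8.37 to 44.3) made up most of the first 2 sums at 4 DAP, while the means of MADS13, MADS58, MADS3 and DL were lower at 4 DAP than before pollination, DL at 1.35 against 6.11. The part of these tissue changes in the KNOX results was not tested.

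**Figure D3:**
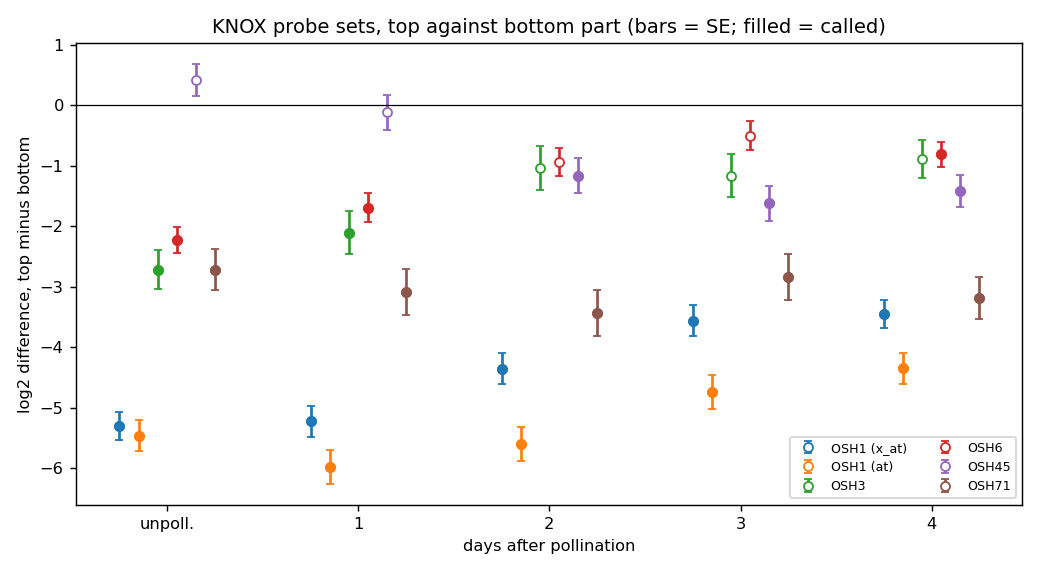
Difference of each KNOX probe set between the parts at each stage, top minus bottom on the log2(value + 0.13) scale, with standard errors as bars and filled points for those called. Both OSH1 probe sets lie between -3.45 and -5.98 and OSH71 between -2.72 and -3.43 at all stages, while OSH45 goes from 0.42 before pollination to -1.42 at 4 DAP.

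OSH1 and OSH71 were called lower in the top part at every stage, and OSH45 was from 2 DAP on. Over all 27 arrays the at probe set of OSH1 ranged from 2.497 to 23.6 in the bottom part and from 0.042 to 0.399 in the top part. OSH71 ranged from 1.67 to 7.79 and from 0.219 to 0.864. The groups did not overlap for either gene, even across days. The top part was 44.2-fold lower for the at probe set of OSH1 before pollination (log2 difference -5.47 ± 0.25 SE, limma, adjusted p = 9.92e-12) and 20.4-fold lower at 4 DAP (-4.35 ± 0.25, adjusted p = 2.59e-09). With the x_at probe set the differences were -5.30 and -3.45. At 4 DAP all 3 top arrays of both OSH1 probe sets lay below the pseudocount, which bounds these differences. Whether the parts came closer for OSH1 cannot be read from the smaller values at 4 DAP. OSH71 was 6.58-fold lower in the top part before pollination (-2.72 ± 0.34, adjusted p = 9.21e-06) and 9.12-fold lower at 4 DAP (-3.19 ± 0.34, adjusted p = 2.01e-05), and at 3 DAP its call was lost when only the 2 groups were fitted (adjusted p = 0.0999). The ratio of raw group means, bottom over top, lay between 7.55 and 16.0 for OSH71. For the at probe set of OSH1 it was 60.5 before pollination. No ratio is given for the later stages, when 1 of 2 top arrays (1 DAP) or all of them lay below the pseudocount.

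OSH3 and OSH6 separated the parts most before pollination. The top part was lower by a log2 difference of -2.72 ± 0.32 (SE) for OSH3 (limma, adjusted p = 3.93e-06) and -2.23 ± 0.21 for OSH6 (adjusted p = 2.64e-07), and both were called at 1 DAP too. At 2 and 3 DAP neither was called, with differences of -1.04 and -1.17 for OSH3 and -0.94 and -0.50 for OSH6. The unadjusted p by limma was 0.00861 and 0.00387 for OSH3 and 0.000777 and 0.0475 for OSH6. The top arrays of both genes lay below the bottom arrays on these days too, without overlap. OSH6 at 2 DAP (adjusted p = 0.0516) was called under 6 of 13 alternatives, among them without replicate 3 of the bottom part (-1.12, 0.0254) or replicate 2 of the top part (-1.35, 0.0198). OSH3 at 3 DAP was called under 3 of 13, with the lowest pseudocount (0.0492), with the 18S covariate (0.0203) and without replicate 1 of the bottom part (0.0285). At 4 DAP OSH6 was called at -0.81 (adjusted p = 0.044) and OSH3 was not, at -0.89 (adjusted p = 0.162). The call of OSH6 at 4 DAP was lost without replicate 2 or 3 of the bottom part (adjusted p = 0.18 and 0.138) and without replicate 1, 2 or 3 of the top part (0.14, 0.0751 and 0.164), and under 6 other alternatives (0.0617 to 0.128).

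OSH45 was the exception before pollination, when its 3 top arrays (2.11 to 2.29) lay above its 3 bottom arrays (1.56 to 1.72). That difference, 0.42 ± 0.26 (SE), was not called (limma, adjusted p = 0.324). The parts overlapped at 1 DAP. From 2 DAP on the top part was lower, by a log2 difference of -1.17 (adjusted p = 0.0463) at 2 DAP, -1.625 (adjusted p = 0.0034) at 3 DAP and -1.42 ± 0.26 (adjusted p = 0.00436) at 4 DAP. The call at 2 DAP was lost without replicate 1 or 3 of the bottom part (adjusted p = 0.117 and 0.18), without replicate 1 or 2 of the top part (0.253 and 0.401), and with the replicate number as a block (-1.05, adjusted p = 0.05 as rounded). It was also lost with the pseudocount at the median (0.0646), with no filter (0.0728) and with quantile normalization (0.051). The call at 3 DAP was lost without replicate 1 of the top part (-1.66, adjusted p = 0.0706). Fitting only the 2 groups ended all 3 calls (adjusted p = 0.0918, 0.291 and 0.143). Without the 3 arrays that stood apart, all of which raised the bottom means, the differences were -1.03, -1.39 and -0.997 and were called (adjusted p = 0.00257, 0.000228 and 0.00144).

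By count, 5 of the 6 probe sets were called lower in the top part before pollination, against 8.13% of all probe sets tested, and 5 at 1 DAP against 2.74%. At 2 DAP 4 were called lower against 1.12%, at 3 DAP 4 against 1.57% and at 4 DAP 5 against 1.29%. None was called higher in the top part by limma, nor was any at an unadjusted p under 0.05. Of all probe sets, 6.84% were called higher before pollination and 1.32%, 0.368%, 3.79% and 1.28% at 1, 2, 3 and 4 DAP. A count of none is near these shares. Both probe sets of OSH1 and that of OSH71 were called lower at all 5 stages, as were 0.297% of all probe sets tested.

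The change since the unpollinated stage differed between the parts in opposite directions for OSH45 and for the class I genes OSH1 (x_at), OSH3 and OSH6. The difference, top change minus bottom change, was called for OSH6 at 2, 3 and 4 DAP (1.29, 1.73 and 1.42), for the x_at probe set of OSH1 at 3 and 4 DAP (1.74 and 1.85), for OSH3 at 4 DAP (1.83) and for OSH45 at 2, 3 and 4 DAP (-1.58, -2.04 and -1.83). Of all probe sets tested 1.52%, 4.01% and 3.69% were called in this comparison at 2, 3 and 4 DAP, and 1.05% at 1 DAP, where by limma no KNOX probe set was, nor had any an unadjusted p under 0.05. The at probe set of OSH1 was not called at 4 DAP (1.11, limma, adjusted p = 0.0893), and was called with the pseudocount at the median (1.49, adjusted p = 0.0106) and with quantile normalization (1.34, 0.0342). In raw means the shares kept at 4 DAP in the bottom and top part were 25.0% and 73.3% for OSH6. They were 15.2% and 63.4% for OSH3 and 107.2% and 23.4% for OSH45. OSH6 in the top part averaged 0.214 before pollination and 0.157 at 4 DAP, and OSH3 0.229 at 4 DAP. These means lay below the median of all values, so the top shares of OSH6 and OSH3 have little resolution. No top share is given for OSH1, whose top values at 4 DAP lay below the pseudocount. The difference for OSH3 at 2 and 3 DAP was called with the replicate number as a block (1.81 and 1.68, adjusted p = 0.0245 and 0.0222) and without replicate 1 of the unpollinated bottom part (2.24 and 2.12, 0.00102 and 0.000967). The top values of OSH1, OSH3 and OSH6 were low against the pseudocount, which makes their log2 change in the top part smaller than that of the raw values. For these genes a smaller fall in the top part cannot be told apart here from little room to fall. OSH71 was called at no day, with -0.47 at 4 DAP and an interval from -1.48 to 0.54.

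Among themselves, the OSH1 probe sets and OSH71 were correlated in both parts, while OSH45 and OSH71 had opposite signs in the 2 parts, a difference that was not tested. Over the 15 bottom arrays, log2 values of the x_at probe set of OSH1 correlated with those of the at probe set at r = 0.977, with OSH6 at 0.948, with OSH71 at 0.780 and with OSH3 at 0.769. OSH45 and OSH71 correlated at r = -0.804 there. Over the 12 top arrays the OSH1 probe sets correlated at 0.956 and x_at with OSH71 at 0.925, OSH45 and OSH71 at 0.921, and OSH45 and the at probe set of OSH1 at 0.953. OSH6 in the top part correlated with no other KNOX probe set above 0.513. These points share the arrays, and days and replicates are mixed in them, so they are given as a description. In the bottom part OSH45 and OSH71 deviated from their group means in opposite directions on the arrays that stood apart, OSH45 by 0.27, 0.47 and 0.84 and OSH71 by -0.67, -0.69 and -0.92 on the log2 scale at 2, 3 and 4 DAP.

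Of 2139 named genes with a tested probe set, OSH71 was the gene whose log2 values over all 27 arrays followed OSH1 most closely (r = 0.977), and OSH1 was likewise nearest to OSH71. OSH1 was next followed by OsMADS16, a floral B-class gene for petal-like organs and stamens (r = 0.962), which went from 35.7 to 3.87 in the bottom and from 1.88 to 0.278 in the top part between the unpollinated stage and 4 DAP. The third was G1L1, of the ALOG family (r = 0.943), which was also second for OSH71 (0.948) before NH5 (0.938). Within the bottom part OSH71 correlated with G1L1 at 0.384 and with NH5 at 0.700, and within the top part at 0.939 and 0.884. Within the bottom part the likeness of OSH1 was 0.921 with OsMADS16, 0.790 with OSH71 and 0.605 with G1L1, and within the top part it was 0.888, 0.959 and 0.859.

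OSH3 was followed most closely by OsTPP9, a trehalose phosphate phosphatase (r = 0.957), by OsRAA1 (0.923), known from root growth in rice, and by OsCAM61 (0.919). OsRAA1 went from 21.7 to 0.398 in the bottom part between the unpollinated stage and 4 DAP and was at 0.476 and 0.420 in the top part. OSH6 was followed most closely by OsNIP2;1, a silicon channel of rice roots (0.941), by OsFTIP1, which is known to help a florigen protein move to the shoot tip (0.937), and by HOS66, another KNOX gene (0.935). For these 3, r was 0.923, 0.913 and 0.899 within the bottom part and 0.600, 0.262 and 0.299 within the top part. For the 3 of OSH3 it was 0.945, 0.940 and 0.869 in the bottom and 0.462, 0.433 and 0.661 in the top part. OSH45 had less close followers, Os4bglu9 (0.863), a beta-glucosidase, OsZHD10 (0.857), a zinc finger homeodomain gene, and GSK1 (0.815), with r of 0.559, 0.910 and 0.881 within the bottom and 0.907, 0.843 and 0.840 within the top part. OsZHD10 went from 5.31 to 0.921 in the top part and from 3.50 to 2.84 in the bottom part. These correlations rank genes by pattern over arrays that share days and parts.

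**Figure D4:**
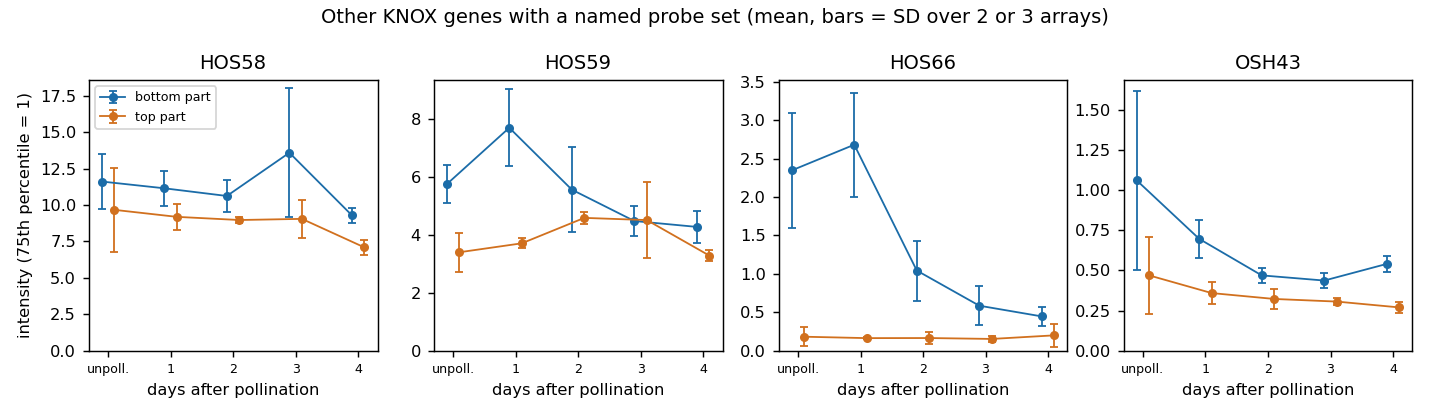
Mean intensity of the 4 other KNOX genes with a named probe set by days after pollination, in units of the array's 75th percentile on a linear axis from 0. Blue is the bottom and orange the top part, with SD over 2 or 3 arrays as bars. HOS66 falls from 2.35 to 0.445 in the bottom part and stays under 0.20 on average in the top part, while the bars of HOS58 overlap between the parts at most stages.

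The other KNOX genes that had a named probe set were HOS58, HOS59, HOS66 and OSH43. In the bottom part 2 of these 4 were called lower at 4 DAP, against 8.34% of all probe sets tested, HOS66 with a log2 change of -2.08 ± 0.35 (SE, limma, adjusted p = 0.000206) and OSH43 with -0.73 ± 0.25 (adjusted p = 0.0424). Both were already called lower at 2 DAP, by -1.09 for HOS66 (adjusted p = 0.0425) and -0.89 for OSH43 (adjusted p = 0.0185). On that day 6.44% of all probe sets were called lower. HOS66 gave 1.499 to 2.91 in the unpollinated bottom part and 0.365 to 0.594 at 4 DAP, and the groups did not overlap. HOS58 was called in no comparison of days or parts, with -0.31 in the bottom part at 4 DAP (adjusted p = 0.357), and HOS59 was called lower in the top part before pollination (-0.75, adjusted p = 0.016) and at 1 DAP (-1.015, adjusted p = 0.0107). OSH43 was called lower in the top part before pollination too (-0.96, adjusted p = 0.012). With HOS66 this made 3 of the 4, against 8.13% of all probe sets tested. HOS66 was lower in the top part by -3.02 before pollination (adjusted p = 3.78e-06) and, with its fall in the bottom part, by -0.87 at 4 DAP, which was not called (adjusted p = 0.224). No gene of the list was called in the top part at 4 DAP against its unpollinated stage by limma, and none had an unadjusted p under 0.05. Of all probe sets 16.5% were called lower and 18.1% higher there, and with 4 genes a count of none says little. The change of HOS66 since the unpollinated stage differed between the parts at 4 DAP by limma (2.145 on the log2 scale, top minus bottom, adjusted p = 0.0171). Its top means, 0.181 before pollination and 0.1985 at 4 DAP, lay below the median of all values. The lack of a fall in the top part cannot be told apart from little room to fall. The median change of the 4 was -0.57 in the bottom and -0.22 in the top part at 4 DAP, against 0.01 and -0.03 over all probe sets tested.

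Of 11 shoot meristem and boundary genes tested, 5 were called lower in the bottom part at 4 DAP by limma, against 8.34% of all probe sets. None was called higher, and none was higher at an unadjusted p under 0.05. Of all probe sets 12.0% were called higher, and with 11 genes a count of none is near that share. OsFON1, a receptor kinase that limits floral meristem size, fell from 8.39 to 2.17 there (log2 change -1.93 ± 0.25 SE, limma, adjusted p = 1.11e-05), and LOG, an enzyme that activates cytokinin in meristems, from 2.04 to 0.502 (-1.75, adjusted p = 0.000673). Of the same genes 4 were called lower and 2 higher in the top part, where 16.5% and 18.1% of all probe sets were, the 2 of 11 higher being near that share. OsFON1 (-1.15) was again among the lower and CFBP1 among the higher (1.28, adjusted p = 0.00237). CFBP1 is on the list by its name MOC2 from tillering and encodes a fructose bisphosphatase of sugar metabolism. Between the parts at 4 DAP, OsFON1 was lower in the top part (-2.15, adjusted p = 5.07e-05) and CFBP1 higher (1.25, adjusted p = 0.0286), and no other of the 11 was called. Of all probe sets 1.28% were called higher there and 1.29% lower. The list's median change was -0.23 in the bottom and -0.41 in the top part.

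Factors of the leaf side, which include repressors of KNOX genes in other plants, went both ways. Of 7 tested, 2 were called higher and 2 lower in the bottom part at 4 DAP, and 2 higher and 3 lower in the top part. Of all probe sets 12.0% were higher and 8.34% lower in the bottom, and 18.1% and 16.5% in the top part. AS2, named for an Arabidopsis repressor of KNOX genes, fell in both parts, from 2.42 to 0.531 in the bottom (log2 change -1.997, limma, adjusted p = 4.48e-05) and from 5.11 to 0.857 in the top part (-2.39, adjusted p = 2.98e-06). OsYAB2 rose in the bottom part (1.34, adjusted p = 0.00516), and OsOFP8 fell in the top part from 0.806 to 0.087 (-2.09, adjusted p = 4.52e-09). OsYAB5 was the 1 gene of the list called between the parts at 4 DAP, lower in the top part (-1.045, adjusted p = 0.00886). Of all probe sets 1.29% were called lower there. The median change was -0.12 in the bottom and -0.28 in the top part.

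Cytokinin genes were called in both directions. Of 27 cytokinin genes tested, 3 were called higher and 4 lower in the bottom part at 4 DAP, and 4 higher and 7 lower in the top part, with medians of -0.23 and -0.43. Against the same shares of all probe sets, 12.0% and 8.34% in the bottom and 18.1% and 16.5% in the top part, the counts of higher genes were near or below the background. OsRRA14 and OsRRA19, named as A-type response regulators of cytokinin signalling, rose in the bottom part, OsRRA14 from 1.48 to 13.3 (log2 change 2.975 ± 0.24 SE, limma, adjusted p = 1.6e-08) and OsRRA19 by 1.84 (adjusted p = 2.13e-05). In the top part OsRRA19 rose by 2.73 (adjusted p = 8.01e-08) and OsCKX11, a cytokinin oxidase, fell from 16.1 to 4.53 (-1.79, adjusted p = 0.00958). Between the parts at 4 DAP limma called none of the 27, where 1.28% of all probe sets were called higher and 1.29% lower. A count of none is near these shares. At an unadjusted p under 0.05, 8 were lower and 2 higher in the top part. The median difference was -0.39, against -0.04 over all probe sets tested.

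Of 12 gibberellin genes tested, 4 were called higher and 3 lower in the bottom part at 4 DAP, and 4 higher and 2 lower in the top part, with medians of -0.06 and 0.05. Of all probe sets 12.0% were called higher and 8.34% lower in the bottom, and 18.1% and 16.5% in the top part, and 2 of 12 lower there is near that share. OsGA20ox3, a gibberellin synthesis enzyme, rose in both parts, from 0.868 to 6.11 in the bottom (2.67, limma, adjusted p = 2.16e-06) and from 0.739 to 4.47 in the top part (2.47, adjusted p = 3.14e-06). OsKO4 rose in the bottom part (1.99, adjusted p = 0.00302), a relative of kaurene oxidase known for phytoalexin synthesis. CYP714D1, known as EUI1, which inactivates gibberellins, rose in the top part (2.39, adjusted p = 3.59e-09). OsCPS, for the entry step of gibberellin synthesis, was the 1 gene called between the parts at 4 DAP, lower in the top part (-1.24, adjusted p = 0.0274). Of all probe sets 1.29% were called lower there.

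Of 15 brassinosteroid genes tested, 3 were called higher and 1 lower in the bottom part at 4 DAP, against 12.0% and 8.34% of all probe sets, and 7 lower in the top part, where limma called none higher and none was higher at an unadjusted p under 0.05. There 16.5% of all probe sets were called lower and 18.1% higher. The 1 of 15 lower in the bottom part is near the share of all probe sets. OsCPD2, a cytochrome P450 of brassinosteroid synthesis, fell in the bottom part from 2.90 to 0.823 (-1.655, limma, adjusted p = 8.53e-05), and OsCYP85A1, which acts late in that synthesis, rose from 1.78 to 4.35 (1.24, adjusted p = 0.0139). In the top part OsbHLH172, known as BU1, a positive factor of brassinosteroid response, fell from 2.57 to 0.429 (-2.22, adjusted p = 5.29e-06) and OsBRI1, the receptor, by 0.94 (adjusted p = 0.0116). No gene of the list was called between the parts at 4 DAP by limma, and 3 were lower in the top part at an unadjusted p under 0.05. Of all probe sets 1.28% were called higher and 1.29% lower there, and a count of none is near these shares. The medians were -0.18 in the bottom and -0.32 in the top part.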

How the data were processed

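Total RNA of 27 ovary samples was labelled as biotinylated cRNA and hybridised 1 sample to an array. The deposited values are an intensity per probe set, read with GCOS 1.3 per the submitters' processing notes. The sources used here give neither the probe summary method nor the background step, and no detection calls were used. The values showed that the authors had divided each array by its 75th percentile, and they ran from 0.01 to 286.8, so all changes are relative to that percentile and the number of arrays limits the precision. The design had assumed globally scaled signals, and the test was kept.

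Intensities of 57258 rice probe sets were taken as log2(value + 0.13), and 29332 with a mean above the median of all values (0.264) were fitted in limma 3.58.1 (R 4.3.3) with 10 group means over all arrays (lmFit, eBayes with an intensity trend, 17 residual and 3.68 prior degrees of freedom). Tests were two-sided and Benjamini-Hochberg adjusted over the probe sets tested. The 23 comparisons were each day against unpollinated, top against bottom, the difference of the changes, and neighbouring days. Tables were made with pandas 2.3.3 and numpy 2.4.6 in Python 3.11.15, and figures with matplotlib 3.10.9. The fit was also run on simulated data, independent normal values with changes placed in the bottom part at 4 DAP alone. That run did not model arrays that stand apart, and no result given here rests on it. Of the rice probe sets, 22436 had 1 gene, 95 several and 34727 none in the array annotation used, and names were updated to RefSeq.

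All KNOX probe sets named by the rule were reported. The nearest genes were, for each member's brightest probe set, the 3 named genes with the highest correlation over all arrays. From each pathway list the 2 called genes with the largest change at 4 DAP in each part and between the parts were named. The 4 other KNOX genes are all described. Names of other functions that matched a list's pattern were dropped after reading (5 from the meristem list and 1 from the gibberellin list). A list of BEL1-like partners matched no gene. The members, lists and markers were chosen with earlier results of these data known. The alternatives were 2 other pseudocounts, no filter, quantile normalization, the replicate number as a block, an 18S signal as covariate, separate fits of the groups compared, and leaving out single arrays or the 3 that stood apart.

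Same-numbered arrays of different groups deviated from their group means with correlations from -0.634 to 0.748 (median 0.092 over 111 pairs), so the numbers were not taken to pair samples. No sequence is shown, since none was used here.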

Additional observations from a re-analysis of the deposited data

Results flagged for a closer look

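The change since the unpollinated stage differed between the parts, by the interaction term in limma, in 9 results on the log2(value + 0.13) scale, given as top change minus bottom change. OSH6 gave 1.29 at 2 DAP (adjusted p = 0.0433), 1.73 at 3 DAP (0.00322) and 1.42 at 4 DAP (0.0091). The x_at probe set of OSH1 gave 1.74 at 3 DAP (0.00509) and 1.85 at 4 DAP (0.00177), and OSH3 gave 1.83 at 4 DAP (0.0243). OSH45 gave -1.58 at 2 DAP (0.0421), -2.04 at 3 DAP (0.00416) and -1.83 at 4 DAP (0.00586). The top values of OSH1, OSH3 and OSH6 were low from the unpollinated stage on. A smaller fall there cannot be told apart from little room to fall.

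Leaving out single arrays ended 3 of these calls. The call of OSH6 at 2 DAP was lost in 7 of 11 fits, with values from 0.875 to 1.71 and adjusted p from 0.0119 to 0.398, the highest without replicate 2 of the top part at 2 DAP. The call of OSH45 at 2 DAP was lost in 10 of 11 fits, with values from -1.70 to -1.45 and adjusted p up to 0.199. The call of OSH3 at 4 DAP was lost in 5 of 12 fits, with values from 1.45 to 2.40 and adjusted p up to 0.0782, the highest without replicate 3 of the unpollinated bottom part. The other 6 stayed called in each such fit. Other alternatives ended the call of OSH6 at 2 DAP in 5 cases (adjusted p = 0.0548 to 0.248) and of OSH45 at 2 DAP with the pseudocount at the median (0.0501) and with no filter (0.0564). The call of OSH3 at 4 DAP was lost when only the groups compared were fitted (0.116).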

How the results depend on the processing

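Of 59 called results of the KNOX probe sets, 42 stayed called and kept their direction under all alternatives run, 17 were lost under at least 1, and none reversed. Single arrays ended 13 of them, fitting only the groups compared 13, no filter 6, the pseudocount at the median 5, the 18S covariate 4, leaving out the 3 arrays that stood apart 3, quantile normalization 2, and the replicate block and the lowest pseudocount 1 each. Of 79 not called, 12 were called under some alternative. The counts of calls were 14 in the bottom part (10 to 15 over all alternatives), 11 in the top part (9 to 13), 23 between the parts (18 to 25) and 9 in the difference of changes (6 to 11). The 2 calls between neighbouring days, both of OSH1, were 0 when only the groups compared were fitted and 0 to 2 leaving out single arrays, and 3 without the 3 arrays that stood apart.

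The direction of some uncalled changes turned. Leaving out single arrays gave log2 ranges of -0.201 to 0.049 for OSH1 (at) in the bottom part at 1 DAP (0.018 with the 18S covariate), -0.025 to 0.391 for OSH45 in the bottom part at 3 DAP (-0.025 without the 3 arrays that stood apart) and -0.455 to 0.177 at 4 DAP. In the top part they were -0.145 to 0.027, -0.47 to 0.362 and -0.219 to 0.036 for OSH6 at 1, 2 and 3 DAP and -0.308 to 0.041 for OSH71 at 1 DAP. Between the parts OSH45 ran from -0.199 to 0.029 at 1 DAP. In the difference of changes OSH1 (x_at) ran from -0.062 to 0.306 at 1 DAP, OSH1 (at) from -0.472 to 0.064 at 2 DAP (0.249 with the pseudocount at the median, 0.022 with quantile normalization) and OSH71 from -0.463 to 0.092 at 3 DAP (0.055 with the pseudocount at the median, 0.054 with the 18S covariate). The cause was not tested.

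With the replicate block, 22 KNOX calls between the parts, 12 in the top part and 11 in the difference of changes were made. OSH71 in the top part at 2 DAP (-1.15, adjusted p = 0.0369) and the difference for OSH3 at 2 DAP (1.81, 0.0245) and 3 DAP (1.68, 0.0222) were then called, OSH45 between the parts at 2 DAP was lost, and the block changed no other call of a KNOX probe set. Counts over all probe sets moved by over 1.5 times in 90 of 321 pairs of comparison and alternative. They ran from 3201 to 7133 (5963 as reported) for the bottom and 8154 to 11591 (10144) for the top part at 4 DAP, from 1916 to 5689 (4391) between the parts before pollination, from 19 to 3530 (1572) at 3 DAP and from 110 to 1155 (751) at 4 DAP. Values near or below the pseudocount, as for OSH1 in the top part, have little resolution, and no detection calls were used.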
